A study of Homo sapiens with 9 samples.

Results

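This account compares 22Rv1 cells carrying the S239D form of PDCD4 with 22Rv1 cells carrying its wild-type form (WT). The 6 libraries were chosen by their genotype labels, 3 for each form, out of 9 in the series. 22Rv1 is an established human prostate carcinoma line of epithelial origin. In all 9 libraries the cells' own PDCD4 had been depleted with a short hairpin RNA, and a WT, S239A or S239D copy had then been supplied. S239D places aspartate, which mimics a phosphate group, at the serine named S239, and S239A places alanine, which cannot be phosphorylated, at that residue. The S239A libraries entered the fit to share its estimate of the spread and to give a level for the named genes. In a few places S239A is also compared with S239D or WT. The question behind the series is whether PLK1, a kinase of mitosis, phosphorylates PDCD4 in cells that resist enzalutamide, a drug used against prostate cancer. The labels name no separate cultures or clones behind the 3 libraries of a form, so each p-value weighs a difference against library spread that may be technical. No knockdown-only library is included here.

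PDCD4 (programmed cell death 4) is a tumour suppressor that binds the RNA helicase EIF4A through its MA3 domains and keeps it out of the cap-binding complex, so that translation of messages with structured leaders is held back. Phosphorylated PDCD4 is a substrate of ubiquitin ligases of the SCF type and is degraded by the proteasome. An RNA measurement reads the transcripts and not the protein, its phosphorylation or translation itself.

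The changed residue is shown in its coding context. In the GENCODE 29 transcript PDCD4-201, the S239 codon, of 469 in all, lies in exon 6, on the plus strand of GRCh38 at chr10:110887824-110887826. The reference sequence of the surrounding coding exon, chr10:110887800-110887850, is printed with that codon in capitals. The codon of the introduced S239D copy is not known here.
PDCD4 S239 codon: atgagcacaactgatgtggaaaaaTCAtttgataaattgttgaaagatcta

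PDCD4 transcripts themselves were read first, because that gene was depleted and put back. Its normalised read counts (CPM, counts scaled to the size of the library) were 24.1, 24.9 and 20.4 in WT and 16.8, 17.1 and 17.0 in S239D. The S239D libraries lay close together and below all WT libraries. The log2 fold change was -0.44 (SE 0.13) at an edgeR adjusted p of 0.0164, and the reads cannot be assigned to the cells' own gene or to the supplied copy. The call did not hold in 3 alternatives: limma on log2(TPM + 1) gave 0.41 as its adjusted p, and leaving out WT replicate 1 or WT replicate 2 gave edgeR adjusted p-values of 0.0657 and 0.0627. BBIP1, a gene on the opposite strand, covers 28.1% of the exon bases of PDCD4, and the strand of the reads was not given. PLK1, the kinase of the study's question, stood at 98.2, 99.6 and 98.8 CPM in WT and 96.5, 93.5 and 87.9 CPM in S239D, a difference of -0.09 (95% interval -0.27 to 0.08, edgeR adjusted p = 0.378).

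Facts of the whole series bear on the reading. Total counts were 5696841 to 9688554 per library. The S239D libraries lay at 55.2 to 58.7 on the first principal component of log2 CPM and the other 6 at -33.5 to -24.7. S239D replicate 2 stood apart from the other S239D libraries on the second component (-27.3 against 8.92 and 17.5), on the side of S239A replicate 2 (-35.8). Transcripts of the mitochondrial genome took 4.72 to 6.01% of counts in S239D and 2.83 to 3.04% in WT, and 2.99, 5.38 and 3.33% in S239A replicates 3, 2 and 1. All 10 markers of prostate luminal epithelium passed the filter, and they summed to 5482 to 5577 CPM in WT and 4144 to 4506 CPM in S239D.

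The difference between S239D and WT reached across the transcriptome. Of 16213 tested genes, 6708 passed at an adjusted p of 0.05, which is 41.4% of them. Higher in S239D were 3195 genes (19.7%) and lower were 3513 (21.7%). The falls were the larger: 306 genes fell at least 4-fold and 65 rose that much, and 69 fell against 8 that rose at least 8-fold. The median called rise was 0.58 and the median called fall -0.70 on the log2 scale. A test against a minimum change of 1.5-fold passed 1409 genes (8.69%), 467 higher and 942 lower. In 8737 genes (53.9%) the S239D and WT libraries did not overlap. For 1475 genes the 95% interval of the log2 fold change lay between -0.32 and 0.32, and 0 of these were called. The direction split turned under 2 alternatives: limma on log2(TPM + 1), where TPM is the deposited abundance scaled by transcript length, called 4351 genes, 2526 higher and 1825 lower, and edgeR with trends over length and GC content removed within each library, an alternative chosen after seeing the data, called 8054, 4475 higher and 3579 lower. Counts in the gene lists that follow stand against the shares of all tested genes, 19.7% higher and 21.7% lower.

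**Figure D1:**
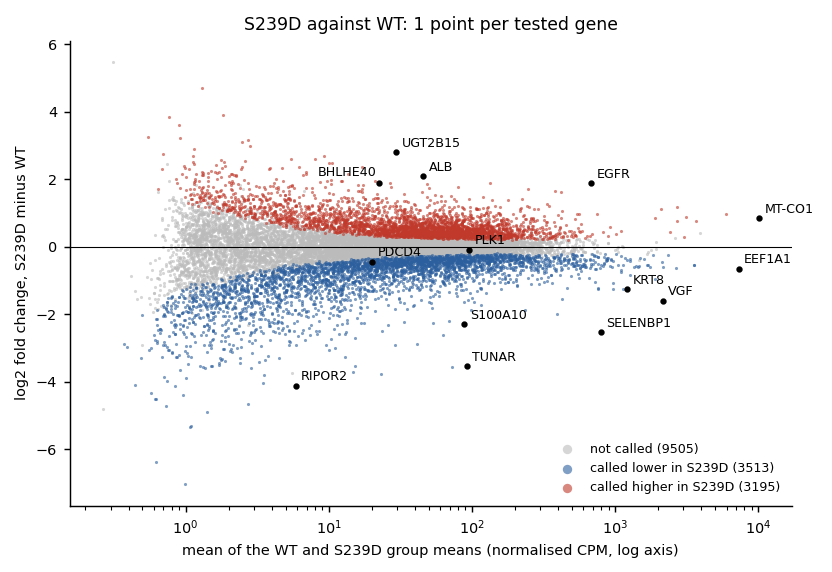
Log2 fold change of S239D against WT (vertical axis) for each of 16213 tested genes against the mean of both group means in normalised CPM (horizontal log axis). Red points were called higher (3195) and blue points lower (3513), and the downward spread reaches further than the upward spread.

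EGFR, the receptor tyrosine kinase for epidermal growth factor (chromosome 7, 55019017 to 55211628), was the most abundant of the 20 genes with the largest rises among called genes with a symbol, at least 10 CPM in the higher group and no overlap between groups. It stood at 283, 297 and 283 CPM in WT and 1026, 1114 and 1059.8 CPM in S239D. The groups lay far apart, and S239A was at the WT level with a mean of 295 CPM. EGFR rose 3.7-fold (log2 fold change 1.89, SE 0.10, edgeR adjusted p = 2.21e-08). EPHA3, an ephrin receptor, rose as well, from a mean of 171 to 371 CPM (log2 fold change 1.12, edgeR adjusted p = 2.34e-07). Other receptor tyrosine kinases fell: PTK7, a pseudokinase of planar cell polarity signalling, from 80.4 to 30.5 CPM, and FGFR1, a fibroblast growth factor receptor, from 82.5 to 37.0 CPM. Of 33 tested receptor tyrosine kinases 6 rose and 10 fell, with a median log2 fold change of -0.14 against 0.001 over all genes, and limma on log2(TPM + 1) turned that count to 9 higher and 5 lower.

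Downstream of such receptors, 15 of 33 tested components of the PI3K, AKT and mTOR pathway rose and 7 fell (median log2 fold change 0.15). TSC1 and TSC2, whose proteins together restrain mTORC1, rose from 36.1 to 65.6 CPM and from 104 to 159.6 CPM. PIK3R3, a regulatory subunit of PI3K, fell from 71.5 to 35.3 CPM. DDIT4, a stress-induced inhibitor of mTORC1, measured 154, 162 and 161 CPM in WT and 73.0, 52.5 and 76.9 CPM in S239D (log2 fold change -1.23, edgeR adjusted p = 2.17e-05). Inhibitors of the pathway thus moved both ways. An antisense gene covers 41.2% of the exon bases of DDIT4. Of 32 Notch pathway genes 13 fell and 7 rose (median -0.18), and limma called 6 each way (median 0.12). The receptor NOTCH3 fell from 133 to 78.7 CPM and the ligand DLL3 from 12.2 to 5.49 CPM, while the coactivator MAML1 rose from 101 to 152 CPM and DTX3, a ubiquitin ligase of the Deltex family, from 23.6 to 43.4 CPM. Among regulators of G protein signalling 8 of 15 fell and 3 rose, but 5 fell without WT replicate 3 or S239D replicate 3 and 1 rose without WT replicate 2. RGS2 fell from 649 to 414 CPM, RGS10 from 11.9 to 3.87 CPM and GPSM2, which overlaps CLCC1 on the other strand, from 90.8 to 59.2 CPM, while RGS20 rose from 2.33 to 4.46 CPM, a call lost without WT replicate 3 and in limma (adjusted p = 0.0577). JAK, STAT and SOCS genes rose in 4 of 23 cases and fell in 1, a count that was 2 and 2 without WT replicate 3 and 8 and 1 with length and GC trends removed. STAT6 rose from 98.1 to 161 CPM.

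Genes read out by the Hippo pathway, which restrains the coactivator YAP, were split 8 higher (25.0%) and 10 lower (31.2%) among 32 tested, against 19.7% and 21.7% of all genes. Only 5 were higher without WT replicate 1 or WT replicate 3. CCN2 (connective tissue growth factor), a YAP target, fell from 20.6 to 4.21 CPM (log2 fold change -2.30, SE 0.19). F3 (tissue factor) fell from 89.5 to 47.5 CPM. PTPN14, a phosphatase that binds YAP, rose from 13.6 to 29.4 CPM, a call lost with limma (adjusted p = 0.068). ANKRD1, another YAP target, rose from 0.545 to 2.33 CPM, and its WT level was close to the floor of 3 counts per library.

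The list of PDCD4 partners, which holds the EIF4A complex, the ubiquitin ligase and the kinases that act on PDCD4, had 3 of 20 tested members higher and 4 lower, 35.0% called against 41.4% of all genes. Without WT replicate 3 it had 2 higher and 2 lower, and without S239D replicate 3 it had 3 higher and 2 lower. EIF4G1, the scaffold of the cap-binding complex, stood at 722, 737 and 732 CPM in WT and at 1161, 983 and 1149.8 CPM in S239D. EIF4G1 rose by 0.59 on the log2 scale (SE 0.10), with an edgeR adjusted p of 0.00029. EIF4G2, a relative that lacks the cap-binding partner site, rose from 787 to 991 CPM, a call lost without WT replicate 1 or WT replicate 3. EIF4EBP1, the inhibitor of cap binding that mTORC1 phosphorylates, fell from 58.4 to 37.3 CPM, and SKP1, an adaptor of SCF ligases, from 230.3 to 172 CPM. Genes that earlier work reported as PDCD4 regulated included 2 that rose and 6 that fell among 15 tested. LOX (lysyl oxidase) fell from 8.62 to 3.09 CPM, the transcription factor MYB from 10.2 to 4.10 CPM and CDH1 (E-cadherin) from 401 to 256 CPM, and JUN rose from 236 to 319 CPM.

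The other genes of that rule for large rises came from unlike classes. ALB (albumin, chromosome 4, 73397114 to 73421482) stood at 16.1, 18.1 and 17.9 CPM in WT and 71.9, 80.7 and 70.1 CPM in S239D. It rose 4.28-fold (log2 fold change 2.10, SE 0.14, edgeR adjusted p = 1.21e-07), with no overlap between groups. A1CF, the complementation factor of APOBEC1, rose from 8.63 to 33.4 CPM, and CGA, the common alpha chain of glycoprotein hormones, from 11.4 to 42.2 CPM. DIO2, an iodothyronine deiodinase that activates thyroid hormone, rose from 5.08 to 19.4 CPM, and PDIA2, a protein disulphide isomerase, from 5.06 to 19.8 CPM. CLSTN2 (calsyntenin 2) rose from 4.14 to 16.6 CPM, ANKRD29 from 2.52 to 10.6 CPM and the antisense RNA FBXL19-AS1 from 5.00 to 22.4 CPM. The readthrough genes TEN1-CDK3 (2.37 to 11.4 CPM) and TIMM23B-AGAP6 (3.77 to 15.7 CPM) share sequence with their component genes, and their values are uncertain for that reason. UGT2B15, which conjugates androgens with glucuronic acid, had the largest rise under that rule, with a log2 fold change of 2.81.

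The largest falls, by the same rule, came from unlike gene classes too. CNTN1, a contactin adhesion molecule, measured 75.7, 69.5 and 72.6 CPM in WT and 10.9, 10.4 and 8.71 CPM in S239D. HOPX, a homeodomain protein that does not bind DNA, measured 53.1, 49.2 and 51.2 CPM in WT and 5.27, 5.67 and 9.24 CPM in S239D. Both falls were far beyond the spread between libraries (log2 fold changes -2.87 and -2.91, SE 0.16 for each). NDUFA4L2, a hypoxia-induced relative of a respiratory chain subunit, fell 6.06-fold from 108 to 17.9 CPM, and S239A stood between them at 70.0 CPM. The serotonin receptor channel HTR3A fell from 19.8 to 2.5 CPM, C1QL1 from 10.5 to 1.38 CPM and ATP2A3, a calcium pump of the endoplasmic reticulum, from 20.3 to 3.39 CPM. FA2H, a fatty acid hydroxylase, fell from 12.8 to 2.10 CPM, PLCL1, an inactive relative of phospholipase C, from 10.6 to 1.64 CPM and RTBDN (retbindin) from 18.1 to 2.75 CPM. RIPOR2 had the largest fall under the rule for named genes, from 11.1 to 0.637 CPM.

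By transcript abundance the changes were led by other genes. All 12 of the largest rises in mean TPM were transcripts of the mitochondrial genome. MT-CO1, a subunit of cytochrome c oxidase, stood at 7196, 7009.7 and 7478 CPM in WT and 11450.1, 15609.7 and 11763 CPM in S239D. MT-ND6, encoded on the other strand of that genome, stood at 156, 209 and 189 CPM in WT and 383, 724 and 635 CPM in S239D. S239D replicate 2 was the highest S239D library for both genes. Of 15 tested mitochondrial genes 12 rose and 0 fell. The largest falls in TPM included EEF1A1, a translation elongation factor, from 8886 to 5664 CPM, and GAPDH, a glycolytic enzyme, from 4209.5 to 2874 CPM. TMSB10, an actin-sequestering thymosin, fell from 1059 to 449 CPM and PTMS (parathymosin) from 1604 to 667 CPM. VGF, a precursor of secreted neuropeptides (chromosome 7, 101162509 to 101165569), measured 3143, 3106 and 3407 CPM in WT and 1227, 872 and 1094 CPM in S239D (log2 fold change -1.60, SE 0.10). SELENBP1, a methanethiol oxidase (chromosome 1, 151364304 to 151372707), measured 1359, 1358 and 1349 CPM in WT and 261, 199 and 245 CPM in S239D. Its 5.76-fold fall (log2 fold change -2.53, SE 0.12, edgeR adjusted p = 5.6e-09) was the largest among the named genes above 1000 CPM in WT. EEF1A1 and GAPDH have many processed pseudogenes, and reads shared with those copies could not be separated here.

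**Figure D2:**
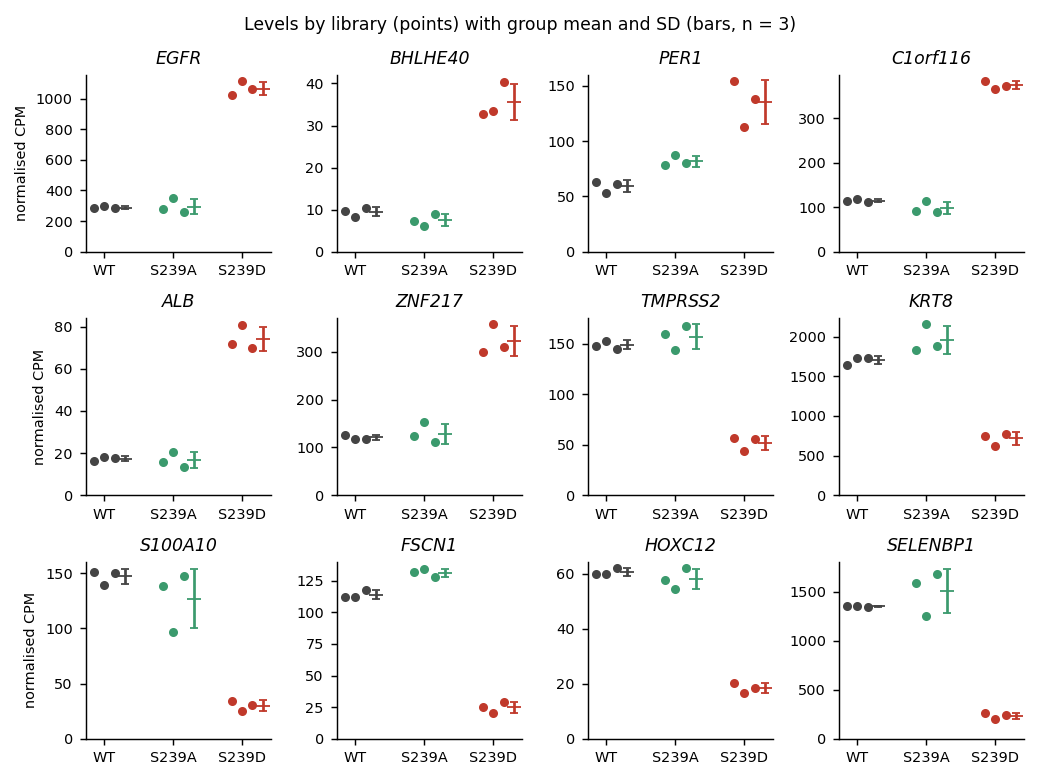
Normalised CPM in each library (points) of WT, S239A and S239D for 12 genes, with group mean and SD (bars, n = 3) and each vertical axis starting at 0. The S239D points lie above both other forms in the first 6 panels and below them in the last 6.

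Transcription factors were next. HOX genes encode the homeodomain proteins that set position along the body axis. None of 28 tested HOX genes rose and 17 fell, which is 60.7% called against 41.4% of all genes, with a median log2 fold change of -0.64. HOXC12 (chromosome 12, 53954903 to 53958956) stood at 59.8, 59.9 and 62.1 CPM in WT and at 20.2, 16.5 and 18.6 CPM in S239D. Every S239D library was below every WT library, and S239A averaged 58.0 CPM. HOXC12 fell 3.28-fold (log2 fold change -1.72, SE 0.11, edgeR adjusted p = 6.96e-08). HOXC6 fell from 31.9 to 14.9 CPM, HOXC10 from 50 to 27.4 CPM and HOXC13 from 35.6 to 21.3 CPM. By gene cluster 7 of 8 tested HOXC genes, 6 of 10 HOXA genes and 4 of 8 HOXB genes fell, and neither of the HOXD genes passed the test. HOX genes of a cluster share exons and have antisense neighbours, so their counts are not independent of each other.

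Factors of prostate luminal identity fell in 8 of 13 tested cases and rose in 1. EHF, an epithelial ETS factor, stood at 80, 74.1 and 71.7 CPM in WT and 26.0, 31.3 and 23.9 CPM in S239D (log2 fold change -1.48, SE 0.11, edgeR adjusted p = 4.13e-07). KLF5 fell from 52.7 to 24.7 CPM and HOXB13 from 417 to 280.2 CPM. Genes induced by androgen were called equally in both directions, 9 higher and 9 lower of 36. C1orf116, an androgen-regulated gene also known as SARG, stood at 115, 118 and 113 CPM in WT and 384, 367 and 373 CPM in S239D. TMPRSS2, the serine protease gene that is often fused to ERG in prostate cancer (chromosome 21, 41464305 to 41531116), stood at 148, 153 and 145 CPM in WT and 56.5, 43.3 and 55.2 CPM in S239D. These 2 androgen-induced genes thus moved in opposite directions, by 1.70 and -1.52 on the log2 scale (SE 0.09 and 0.10). SLC45A3 rose from 51.8 to 138 CPM and NDRG1 fell from 205 to 118 CPM.

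Krüppel-like and SP factors were called in 75.0% of 20 tested members, 8 higher and 7 lower, with 5 higher without WT replicate 1, WT replicate 3 or S239D replicate 3. KLF12 fell from 16.8 to 2.22 CPM and KLF9 from 65.5 to 22.1 CPM, while KLF11 rose from 20.3 to 51.7 CPM and KLF6 from 21.4 to 46.1 CPM. KLF9 was higher in S239A than in WT (90.8 CPM), on the other side of WT from S239D, and that difference from S239A was -2.04 (edgeR adjusted p = 7.76e-09). Of 35 tested nuclear receptor genes 10 rose and 10 fell (28.6% each), but 7 rose and 6 fell without WT replicate 1, where the median turned from 0.05 to -0.07, and 6 fell without S239D replicate 3 (median -0.02). The orphan receptor NR4A3 rose from 5.61 to 28.8 CPM and NR2C2 from 84.7 to 168 CPM. The COUP-TF genes NR2F1 and NR2F2 fell together, from 111 to 42.8 CPM and from 67.1 to 34.2 CPM.

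The circadian clock is a feedback loop in which CLOCK and ARNTL bind E-box elements and switch on PER, CRY, NR1D and BHLHE40 genes, whose products act back on it. Of 23 tested clock genes 11 rose and 4 fell (65.2% called, median log2 fold change 0.33), and 2 fell without WT replicate 1 or S239D replicate 3. BHLHE40 (chromosome 3, 4979437 to 4985323) stood at 9.75, 8.25 and 10.4 CPM in WT and 32.7, 33.5 and 40.4 CPM in S239D. It rose 3.72-fold (log2 fold change 1.89, SE 0.16, edgeR adjusted p = 7.26e-07). PER1 (chromosome 17, 8140472 to 8156506) stood at 62.6, 52.9 and 61.5 CPM in WT and 154, 113 and 138 CPM in S239D, and S239A lay between at 81.6 CPM. Groups overlapped for neither gene. NR1D1 rose from 8.33 to 25.6 CPM, BHLHE41 from 11.1 to 27.4 CPM, CIART from 7.66 to 19.8 CPM and PER2 from 37.4 to 66.1 CPM. DBP, an output factor that the loop drives, fell from 34.5 to 16 CPM. The labels give no time of harvest.

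Because several of these clock genes moved together, the promoters of 4 that rose are shown, each with the E-box CACGTG. That motif reads alike on both strands and was the only one searched for. Of 23 tested clock genes 20 had a RefSeq promoter window (GRCh38.p14, from 250 bases before to 50 bases after the RefSeq start, the first listed where a gene has several), and 5 of those windows held it. They included 4 of the 10 clock genes that rose and had a window, and 0 of 4 that fell. The remaining window with the motif was that of TEF, which was not called and is not printed. The motif was in 7.43% of all 27305 promoter windows, in 13.6% of those of tested genes that rose, in 7.96% of those that fell and in 9.92% of those not called. A match is a description of the letters and not of a bound site. The stretches printed are 60 bases each and lie before the RefSeq start, with the E-box in capitals. The CIART window held 3 E-boxes, and the stretch with 2 of them is printed. For PER1 that start is at 8152404, inside the longer span that the deposited table gives the gene.
BHLHE40 promoter, chr3:4979187-4979246, plus strand: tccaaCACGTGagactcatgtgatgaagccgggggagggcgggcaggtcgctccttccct
PER1 promoter, chr17:8152545-8152604, minus strand: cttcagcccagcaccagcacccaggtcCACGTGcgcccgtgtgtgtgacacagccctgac
BHLHE41 promoter, chr12:26125053-26125112, minus strand: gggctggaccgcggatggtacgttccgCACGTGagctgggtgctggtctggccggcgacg
CIART promoter, chr1:150282456-150282515, plus strand: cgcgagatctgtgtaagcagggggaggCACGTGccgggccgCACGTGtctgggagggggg

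Lists of nuclear genes went both ways. Polycomb and DNA methylation genes had 6 higher and 10 lower of 39 (median log2 fold change -0.05). That is 41.0% called, close to the 41.4% of all genes. Cohesin, condensin and kinetochore genes had 7 higher and 20 lower of 44 (median -0.23). The latter had 3 or 4 higher without any 1 of the WT libraries, S239D replicate 2 or S239D replicate 3. Histone lysine methyltransferases and demethylases rose in 21 of 45 tested cases and fell in 5 (median log2 fold change 0.31). The falls were 2 or 3 without any 1 of the 3 WT libraries, S239D replicate 1 or S239D replicate 3. ASH1L, a methyltransferase of histone H3 lysine 36, rose from 79.1 to 174 CPM. KMT2B and KMT2D, which methylate lysine 4 of histone H3, rose by 0.82 and 0.65 on the log2 scale, and the KMT2D call was lost with limma on log2(TPM + 1) (adjusted p = 0.35). KDM1B, a lysine 4 demethylase, fell from 66.7 to 42.1 CPM. Among nucleosome remodellers 15 of 35 rose and 4 fell. CHD2 stood at 87.0, 80.1 and 93.4 CPM in WT and 202, 201 and 202 CPM in S239D (log2 fold change 1.21, SE 0.09, edgeR adjusted p = 3.11e-07). CHD3 rose from 105 to 208 CPM, a call lost with limma on log2(TPM + 1) (adjusted p = 0.227). The remodeller SMARCA1 fell from 35.5 to 13.9 CPM and the neuronal subunit ACTL6B from 19.9 to 9.74 CPM. Genes of messenger RNA decay and the RNA exosome rose in 24 of 46 tested cases and fell in 3 (median 0.26). The nonsense-mediated decay factor SMG5 rose from 256 to 403 CPM, and the decapping factors DCP1A and EDC4 rose by 0.80 and 0.50 on the log2 scale. ZFP36 (tristetraprolin), which directs decay of messages with AU-rich elements, fell from 49.0 to 29.5 CPM. Ubiquitin-specific proteases rose in 20 of 50 cases and fell in 3, but 13 rose without WT replicate 1 or WT replicate 2, with USP54 at 272 and 526 CPM and USP2, which fell, at 9.94 and 3 CPM.

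The zinc finger genes with a ZNF symbol were called in 28.3% of 498 cases, fewer than the 41.4% of all genes. The 108 higher (21.7%) were near the 19.7% of all genes, and the 33 lower (6.63%) were below the 21.7% of all genes. The median over the family was 0.16. ZNF217, an amplified oncogene of breast cancer, stood at 127, 118 and 117 CPM in WT and 299.8, 358 and 310 CPM in S239D. It rose 2.67-fold (log2 fold change 1.42, SE 0.11, edgeR adjusted p = 4.67e-07). ZNF367 fell from 63.2 to 39.3 CPM. Histone genes rose in 11 of 31 tested cases and fell in 0 (median 0.54), though 2 fell without S239D replicate 3. Those that rose included HIST2H4A (23.6 to 56.8 CPM) and HIST1H4H (6.72 to 14.7 CPM). Most histone messages lack a poly(A) tail, the libraries were made from poly(A) RNA, and near-identical copies share reads. HIST2H2BC and HIST2H2BD overlap on opposite strands, both calls were lost with limma on log2(TPM + 1), and HIST2H2BC, which rose by 0.73 on counts, stood at 0.02 there.

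Level moved with transcript length in these libraries, and the lengths of the gene lists and families themselves were not compared. With genes divided into 10 classes by the relative length that the deposited counts and TPM imply, the median log2 fold change of S239D against WT ran from -0.14 in the shortest class to 0.19 in the longest. In S239A against WT, with the same WT libraries, it ran from -0.06 to 0.16. The longest class stood above the shortest by 0.39 in S239A replicate 2 and by 0.34 in S239D replicate 2, and by 0.03 and 0.06 in the other S239D libraries, against -0.23 to -0.16 in WT. With trends over length and GC content removed within each library, 28 histone methylation genes rose and 5 fell (median 0.28), 30 RNA decay genes rose and 3 fell (median 0.32) and 164 ZNF genes rose and 36 fell (median 0.20), against a median of 0.06 over all genes. Over all genes that setting raised the share called higher from 19.7% to 27.6% and moved the share called lower from 21.7% to 22.1%. It gave 17 higher and 5 lower nucleosome remodellers, 13 higher and 4 lower clock genes, 0 higher and 16 lower HOX genes, and 0 higher and 10 lower annexins and S100 proteins.

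**Figure D3:**
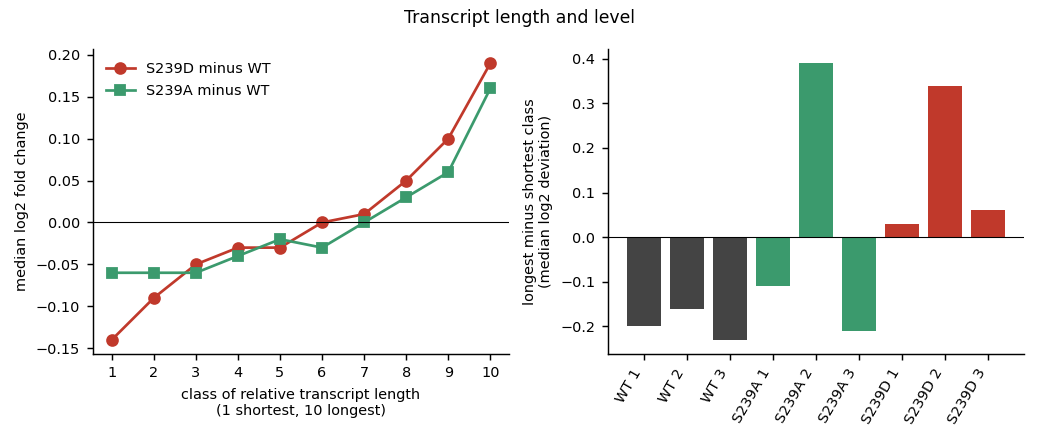
Left, median log2 fold change against WT in 10 classes of relative transcript length (1 shortest, 10 longest) for S239D and S239A. Right, the longest minus the shortest class in each library (median log2 deviation from the mean of all libraries), highest in replicate 2 of S239A (0.39) and of S239D (0.34).

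Of 14 tested annexins and S100 proteins, which bind calcium and membranes, 10 fell and 0 rose (71.4% called, median log2 fold change -0.72). S100A10, the light chain of the annexin A2 complex, stood at 151, 139 and 149.8 CPM in WT and 34.5, 24.9 and 30.7 CPM in S239D. ANXA2, its partner, stood at 18.2, 20.9 and 16 CPM in WT and 4.04, 4.19 and 5.04 CPM in S239D. Both members of the complex fell, with log2 fold changes of -2.29 and -2.03 (SE 0.15 and 0.17). ANXA1 fell from 11.9 to 1.75 CPM and ANXA5 from 131 to 80.4 CPM. Tubulins and microtubule-associated proteins fell in 16 of 28 cases and rose in 2 (median -0.49). TUBB2B fell from 26.4 to 4.02 CPM, TUBA1A from 284 to 130.4 CPM and STMN1, which destabilises microtubules, from 403 to 188 CPM, while MAP4, which stabilises them, rose from 462 to 593 CPM. Tubulin paralogs are alike in sequence and may share reads. Actin and its binding proteins fell in 22 of 48 cases and rose in 6 (median -0.25). With limma on log2(TPM + 1) that count was 10 lower and 7 higher (median -0.09). FSCN1 (fascin), which bundles actin in protrusions (chromosome 7, 5592816 to 5606655), stood at 112, 112 and 118 CPM in WT and 25.1, 20.5 and 29.3 CPM in S239D. It fell 4.56-fold (log2 fold change -2.19, SE 0.11, edgeR adjusted p = 1.77e-08). MSN (moesin) fell from 24.6 to 8.47 CPM and ACTG1 from 3231 to 2072 CPM.

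Keratins, tetraspanins and surface glycosylation followed. KRT8, a keratin of simple epithelium (chromosome 12, 52897187 to 52949954), stood at 1639.7, 1729 and 1731 CPM in WT and 748, 626 and 776 CPM in S239D. It fell 2.37-fold (log2 fold change -1.25, SE 0.09, edgeR adjusted p = 2.68e-07), although its many pseudogenes may share reads. KRT7 and KRT19 fell too, and 5 of 7 tested keratins fell in all. KRT15 rose from 4.09 to 7.23 CPM with overlapping libraries, and its call was lost without WT replicate 3, S239D replicate 1 or S239D replicate 3. Tetraspanins fell in 11 of 24 cases and rose in 0 (median -0.38). TSPAN1 fell from 78.8 to 25.0 CPM, TSPAN8 from 51.3 to 22.4 CPM and TSPAN33 from 26.8 to 9.11 CPM, and TSPAN7 fell from 6.60 CPM to 0.45 CPM, a level near the floor of 3 counts per library. The transferases that start mucin-type O-glycosylation fell in 7 of 13 cases and rose in 0 (median -0.61). GALNT7 stood at 291, 298 and 272 CPM in WT and at 114, 149 and 121 CPM in S239D. GALNT16 fell from 17.3 to 4.23 CPM. The call of GALNT11 (111 to 83.5 CPM) was lost with limma on log2(TPM + 1) (adjusted p = 0.155). Mucin and secretory genes moved both ways, 6 higher and 5 lower of 15, with MUC13 at 37.6 and 80.6 CPM and AGR2 at 45.7 and 30.6 CPM.

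Potassium channel genes were called in 75.0% of 52 cases, 28 lower and 11 higher, with a median log2 fold change of -0.72, and 6 were higher without WT replicate 1. KCNS3, a silent modulatory subunit, fell from 14.1 to 3.03 CPM and KCNH3 from 18.8 to 5.12 CPM. KCNMA1, the large-conductance calcium-activated channel, stood at 76.6, 71.1 and 71.4 CPM in WT and 37.5, 36.5 and 36.2 CPM in S239D, where edgeR gave -0.99 on the log2 scale (adjusted p 2.39e-06) and limma on log2(TPM + 1) gave -0.48 (adjusted p 0.0534). KCNH5 rose from 2.38 to 11.4 CPM. Semaphorins and plexins, the guidance ligands and receptors, were called in 69.0% of 29 cases, 10 in each direction. SEMA6A and the receptor PLXNB1 rose, from 136 to 303 CPM and from 56.6 to 113 CPM, while SEMA6B fell from 47.5 to 15.4 CPM and SEMA6D from 9.42 to 1.97 CPM. Complement and coagulation genes fell in 10 of 21 cases and rose in 1, and serine proteases and their inhibitors fell in 10 of 22 and rose in 2. C3, the central complement component, fell from 9.46 to 1.31 CPM and coagulation factor F5 from 11.1 to 1.88 CPM. SPINT2, a Kunitz inhibitor, fell from 439.5 to 238 CPM, and HPN (hepsin), a protease that it inhibits, rose from 36.1 to 55.1 CPM. KLK1 fell from 99.5 to 49.5 CPM. The rise of C4A (3.25 to 5.75 CPM) was lost in 5 of 15 alternatives, and C4A has a near-identical copy.

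In each of the metabolic lists described here more genes fell than rose, but not in all that were counted. Amino acid transporters had 9 higher and 8 lower of 28, and ABC transporters had 7 each way of 30. Of 34 tested genes of glucose transport and hexose metabolism 16 fell and 5 rose (median log2 fold change -0.34), and 3 rose without WT replicate 1 or WT replicate 2. The glucose transporter SLC2A1 stood at 88.2, 90.4 and 86.2 CPM in WT and 50.5, 40.6 and 52.2 CPM in S239D (log2 fold change -0.88, SE 0.10, edgeR adjusted p = 1.18e-05). UGDH, which makes the glucuronic acid donor, fell from 276 to 157 CPM, and PYGL, a glycogen phosphorylase, from 37.3 to 12.8 CPM. In the tricarboxylic acid cycle and its control 14 of 33 fell and 4 rose, and limma on log2(TPM + 1) called 6 lower and 4 higher. IDH2 stood at 113, 118 and 119 CPM in WT and 50.6, 49.8 and 55.1 CPM in S239D (log2 fold change -1.17, SE 0.09). PDK4, which inhibits pyruvate dehydrogenase, rose from 297 to 540.4 CPM, whereas its relative PDK2, which overlaps SAMD14 on the other strand, fell from 40.5 to 24.6 CPM. Of genes of serine, folate and one-carbon metabolism 13 of 30 fell and 5 rose, and limma on log2(TPM + 1) called 7 lower and 6 higher. MTHFD2 and PHGDH had log2 fold changes of -0.64 and -0.59, and methionine synthase (MTR) rose by 0.37. Glutathione and thioredoxin enzymes fell in 15 of 36 cases and rose in 2, with PRDX1 (24.9% of its exon bases lie opposite MMACHC) at 413 and 246 CPM, GSTO1 at 23.1 and 9.72 CPM and GPX1, which rose, at 137 and 176 CPM. Polyamine genes fell in 8 of 17 cases and rose in 2, but only 3 fell without WT replicate 1 or WT replicate 2, 5 without S239D replicate 1 and 4 without S239D replicate 3.

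**Figure D4:**
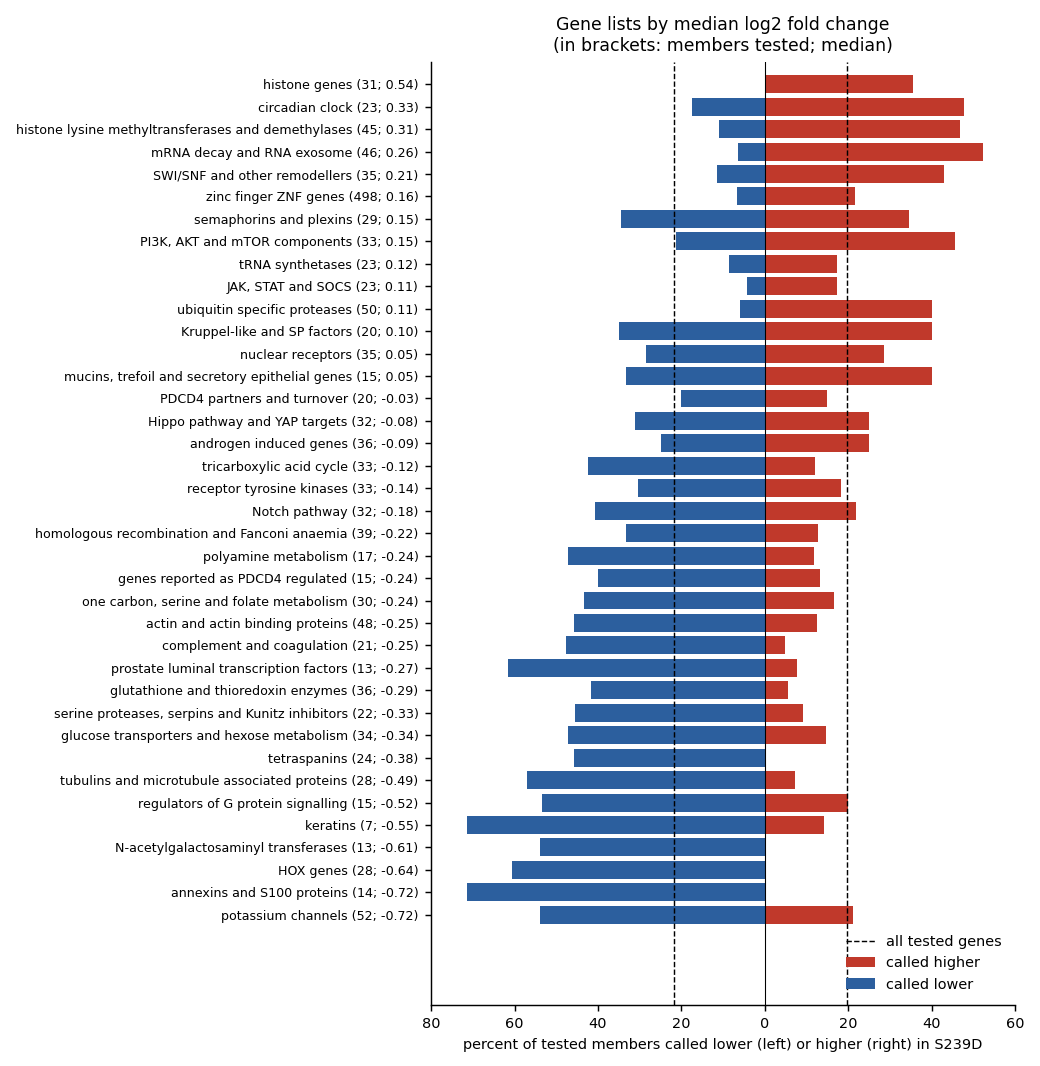
Percent of tested members called lower (left, blue) or higher (right, red) in S239D for gene lists and symbol families described here. They are ordered by median log2 fold change, with the number tested and the median in brackets. Marker sets and the Polycomb and cohesin lists are not plotted. Dashed lines mark all tested genes (21.7% lower, 19.7% higher). Annexins and S100 proteins, HOX genes, tetraspanins and the transferases of mucin-type O-glycosylation have no member called higher.

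Genes of homologous recombination and the Fanconi pathway fell in 13 of 39 cases and rose in 5. UBE2T, the ubiquitin-conjugating enzyme of the Fanconi pathway, stood at 85.6, 83.9 and 91.8 CPM in WT and 36.5, 43.8 and 42.9 CPM in S239D (log2 fold change -1.08, SE 0.11). CHEK2 fell from 34.8 to 23.3 CPM, and the checkpoint kinase ATR rose from 29.9 to 49.7 CPM. The tRNA synthetases rose in 4 of 23 cases and fell in 2, with NARS at 255 and 367 CPM. That count was unstable: it was 1 and 1 without WT replicate 2, 3 and 0 without WT replicate 1, 2 and 1 without WT replicate 3 or S239D replicate 3, and 11 and 1 with length and GC trends removed.

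Calls were spread unevenly over chromosomes. On chromosome 3, 330 of 885 tested genes rose (37.3%) and 110 fell (12.4%), with a median log2 fold change of 0.22. Chromosome 18 had 75 of 232 higher (32.3%) and 30 lower (12.9%), with a median of 0.21. The other autosomes had medians of -0.09 to 0.11 and the X chromosome -0.09. In windows of 20 Mb with at least 20 tested genes, the median ran from -0.41 to 0.48 over 154 windows, and 5 in 100 of them lay above 0.21. All 4 windows of chromosome 18 lay between 0.17 and 0.24. On chromosome 3 the windows at 40 to 60 Mb and 120 to 140 Mb stood at 0.31 and 0.32, with 44.1% of genes higher in each, while those at 60 to 80 Mb and 160 to 180 Mb stood at 0 and 0.02. The highest window, the end of chromosome 2 from 240 Mb, had 12 of 31 genes higher and 0 lower (0.48), and each S239D library showed it (0.51, 0.34 and 0.39). Next came the end of chromosome 8 from 140 Mb (0.44, 48.0% of genes higher). The lowest window was at 20 to 40 Mb of the X chromosome (-0.41, 48.6% lower). The same windows of chromosomes 2, 3 and 18 stood at -0.07 to 0.06 in S239A against WT. DNA copy number was not measured, and its part in these values was not tested.

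**Figure D5:**
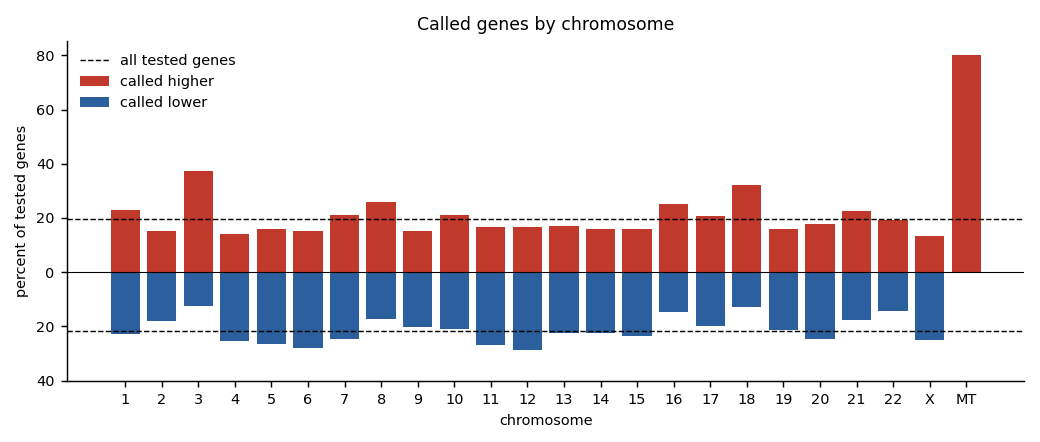
Percent of tested genes called higher (red, up) or lower (blue, down) in S239D on each chromosome, with dashed lines at the values for all tested genes (19.7% and 21.7%). Chromosomes 3 and 18 have the largest percent called higher among the nuclear chromosomes, at 37.3% and 32.3%.

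By annotated class, protein-coding genes were called in 43.5% of 13759 cases (2700 higher, 3284 lower) and antisense RNAs in 25.8% of 875 (144 higher, 82 lower). Long intergenic RNAs were higher in 93 and lower in 52 of 481 cases. Transcribed unprocessed pseudogenes were higher in 81 and lower in 19 of 240 cases, with a median log2 fold change of 0.37, and they share sequence with their parent genes.

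Each set of markers of other cell types summed to less than the luminal set, and the fibroblast set was the highest of them. The 10 leukocyte markers summed to 2.82 to 3.47 CPM in WT and 1.90 to 2.11 CPM in S239D, with CD3D, CD3E, MS4A1 and NKG7 at 0 in all libraries. Endothelial markers (8) summed to 1.58 to 3.28 CPM and 2.75 to 5.71 CPM in the same order, with CDH5 at 0. Fibroblast markers (10) summed to 69.9 to 82.5 CPM in WT and 54.2 to 64.9 CPM in S239D, with FAP at 0. Of these DCN fell from 3.15 to 0.661 CPM and LUM, a matrix proteoglycan, from 33.8 to 18.3 CPM, the LUM call being lost with limma. The part of these cell types in the results was not tested. The basal epithelial markers (6) summed to 10.8 to 15.8 CPM and 7.06 to 13 CPM, with 2 tested. Of these ITGB4 fell from 8.45 to 3.52 CPM, a call lost with limma. The other, KRT15, rose by 0.84 on the log2 scale, a call lost without any 1 of 3 libraries. Of the luminal markers 7 of 10 fell and 2 rose, with FOLH1 (prostate-specific membrane antigen) rising from 199 to 295 CPM.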

How the data were processed

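RNA was sequenced in 9 libraries of 22Rv1 cells, 3 each for WT, S239A and S239D PDCD4. Per the labels' protocols, messenger RNA was bound to poly-T beads and copied from random hexamers. The authors deposited expected counts per gene from RSEM with no scaling between libraries, and TPM scaled within each library by the authors. The submitters' processing notes list Trimmomatic 0.39 and RSEM. The sources used here do not give the aligner, genome build, annotation or strandedness. Gene positions are those of the deposited table, and of 16213 tested genes 16086 were found in GENCODE 29, of which 99.91% overlapped their GRCh38 position.

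Expected counts were rounded, scaled by TMM, filtered with filterByExpr and tested with edgeR 4.0.16 (R 4.3.3), using its quasi-likelihood test (two-sided) with all 9 libraries fitted together, with Benjamini-Hochberg adjustment over all tested genes and a threshold of 0.05. A minimum fold of 1.5 was tested with glmTreat. Levels are normalised CPM and log2 fold changes are edgeR's. The limit that 3 counts set was 0.31 to 0.527 CPM by library, for counting error only. Groups followed the genotype labels; the titles of the S239D samples read S23D.

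The members and the lists were chosen with earlier results of these data known, so no list was tested as a set; 63 lists and 29 symbol families were counted. Named genes were PDCD4, PLK1, called genes with a symbol ranked by fold (20 up, 20 down), at least 10 CPM in the higher group and no overlap between groups, the 12 largest rises and falls in TPM, up to 4 called members per list by adjusted p, and called markers of other cell types. BHLHE41, CIART and PER2 were added for their promoters or lists after their values were seen, and not every gene of the rule is given. Alternatives were RLE scaling, DESeq2 1.42.0, limma 3.58.1 on log2(TPM + 1) (1 TPM or more in 3 libraries), no filter, 1 CPM in 6 libraries, the compared libraries alone, blocking on replicate number, and libraries left out. Removing trends over length and GC content (16075 genes with values) was added after seeing the data. The test was checked on simulated data with few changed genes, as many up as down, and the same spread for every gene. That setting is unlike the data here, where a large share of genes was called.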

Additional observations from a re-analysis of the deposited data

How the results depend on the processing

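No gene called under the main settings was called in the opposite direction under any of 15 alternatives, and the share of the 6708 calls that stayed called ran from 58.1% (limma on log2(TPM + 1)) to 99.2% (RLE scaling and the replicate block). The number of called genes was 4351 with limma on log2(TPM + 1), and the number past 1.5-fold, 1409, was 713 with DESeq2 and 233 with limma; the cause was not tested. Leaving out each of the 6 compared libraries gave 5322 to 6776 called genes and 1072 to 1347 past 1.5-fold. Without replicate 2 of both S239A and S239D 8522 were called. Of 189 named genes that were called, 167 stayed called in every alternative and 22 lost the call in at least 1.

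The replicate block gave 7275 called genes and 1540 past 1.5-fold. Same-numbered WT and S239D libraries did not deviate together (correlations -0.00346, 0.0102 and -0.00873 across genes). With 3 libraries a form, these values cannot show whether same-numbered libraries were prepared together. Between S239A and S239D, same-numbered libraries had correlations of 0.1, 0.251 and 0.103, highest for replicate 2. Those of unlike number had -0.207 to 0.15. List medians changed sign with limma on log2(TPM + 1) for receptor tyrosine kinases (0.01), the Notch pathway (0.12), the tricarboxylic acid cycle (0.03) and polyamine metabolism (0.08), against 0.08 over all genes. Depth limits genes near the floor of 3 counts, such as TSPAN7, ANKRD1 and RIPOR2.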
